A study of Homo sapiens with 24 samples.

Results

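Of 1691 UTX sites called in UMUC1 bladder cancer cells carrying either form of UTX, 934 (55.2%) overlapped no MLL4 peak. A UTX site was a UTX peak of HEAA cells overlapping one of WT cells, or the reverse, by at least 1 bp, with overlapping peaks merged and any site overlapping a UTX peak of EV cells dropped. The sites described here are those that overlapped no MLL4 peak of either the HEAA or the WT line. The other 757 sites carried an MLL4 peak in at least 1 of these lines and serve as the comparison. The members were chosen by the presence or absence of a peak in 5 lists (UTX in HEAA, WT and EV, MLL4 in HEAA and WT), and values from those lists are given as a description without a test.

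Chromatin immunoprecipitation sequencing (ChIP-seq) was performed on 3 stable lines made from the same bladder cancer cell line with the pSIN-puro vector and harvested 3 days after plating. HEAA cells expressed UTX with the H1146A and E1148A substitutions, WT cells expressed wild-type UTX, and EV cells carried the empty vector. The labels give mnase for the UTX and MLL4 libraries and sonic for the libraries of histone marks. Sites and marks are thus compared across different preparations, and the part of this in the comparisons was not tested. The labels do not state whether each line was a clone or whether libraries came from separate cultures. UTX, MLL4, H3K4me1 and H3K27me3 have 1 peak list per line, so comparisons between lines for them have no replicate check. H3K27ac has 2 libraries per line, and its p-values measure only how far these libraries differ from each other, a spread that may be technical.

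UTX, encoded by KDM6A, removes methyl groups from lysine 27 of histone H3 and is also a subunit of the MLL3 and MLL4 histone methyltransferase complexes. These complexes place H3K4me1 at enhancers, where H3K27ac marks the active state, while H3K27me3 is the repressive mark of Polycomb complexes. Acetylation and methylation cannot occupy the same lysine 27 at once, and KDM6A is often mutated in bladder cancer.

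The lists share a feature that bears on every count of MLL4. None of the 3 MLL4 lists, with 1125 peaks in HEAA, 898 in WT and 133 in EV cells, held a peak on chromosomes 20, 21 or 22. The UTX lists held 248 peaks there in HEAA and 205 in WT cells, and each H3K27ac list held at least 2676. No source used here gives a reason for the absence. It placed 143 of the 934 sites, 70 on chromosome 20, 29 on chromosome 21, 43 on chromosome 22 and 1 on the unplaced scaffold GL000220.1, where no MLL4 peak was listed at all. On the remaining chromosomes, 791 of 1548 UTX sites lacked MLL4 and 757 (48.9%) carried it. Results are given for all 934 sites and for the 791.

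**Figure D1:**
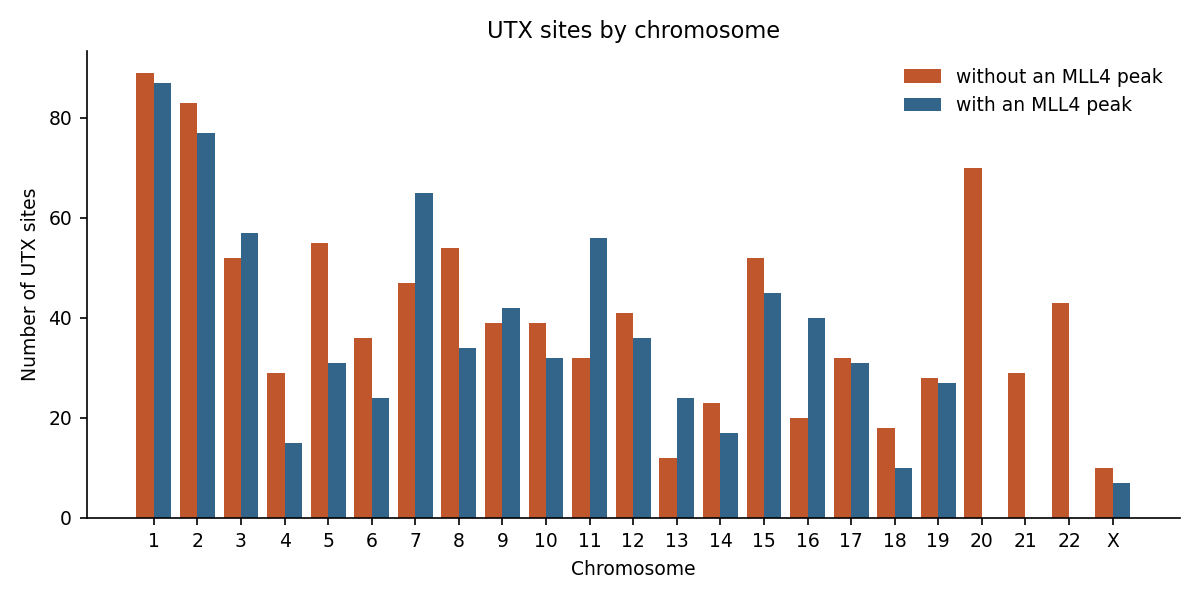
Number of UTX sites (y axis) on each chromosome (x axis), without an MLL4 peak on the left of each pair and with one on the right. Chromosomes 20, 21 and 22 hold 70, 29 and 43 sites without and 0 with an MLL4 peak, and the 1 site on the unplaced scaffold is not drawn.

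On chromosomes that did hold MLL4 peaks, the share of UTX sites carrying one ran between 34.1% on chromosome 4 and 66.7% on chromosomes 13 and 16. Sites without MLL4 were spread over all of them, with 89 on chromosome 1, 83 on chromosome 2 and 10 on chromosome X. Most lay far from any MLL4 peak: the median gap was 299044 bp over the 791 sites. A gap of 1 kb or less was found at 13 sites, of 10 kb or less at 69, and of 100 kb or less at 256. Few sites without MLL4 lay close to the boundary of the rule. The sites just inside the rule were chr9:132096359-132096696, 2 bp from an MLL4 peak, and sites on chromosomes 11 and 12 at gaps of 174 and 352 bp. Just outside it, chr14:23083118-23083537 overlapped MLL4 by 41 bp, and 1 site each on chromosomes 2 and 12 did so by 92 bp. Coordinates here and below are in the hg19 build, 1-based, and sites were not assigned to genes.

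Sites without MLL4, each merged from the UTX peaks of both lines, were short. Their median width was 298 bp, against 340 bp at sites with MLL4. The authors' UTX fold enrichment had a median of 5.34 in HEAA and 5.18 in WT cells at sites without MLL4, against 6.26 and 5.96 at sites with it. The UTX summits of the 2 lines lay a median of 29.5 bp apart without MLL4 and 26 bp apart with it (90th percentiles 98 and 87.4 bp). The rule kept only peaks that overlap between the lines, so this closeness is partly set by the rule. Fold enrichment in HEAA and WT cells had a Spearman rho of 0.284 over the 934 sites and 0.386 over the 757, given as a description, since sites share libraries. On chromosomes with MLL4 peaks, MLL4 was listed at 70.8% of the UTX sites in the strongest of 5 equal groups by UTX fold and at 32.7% in the weakest.

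**Figure D2:**
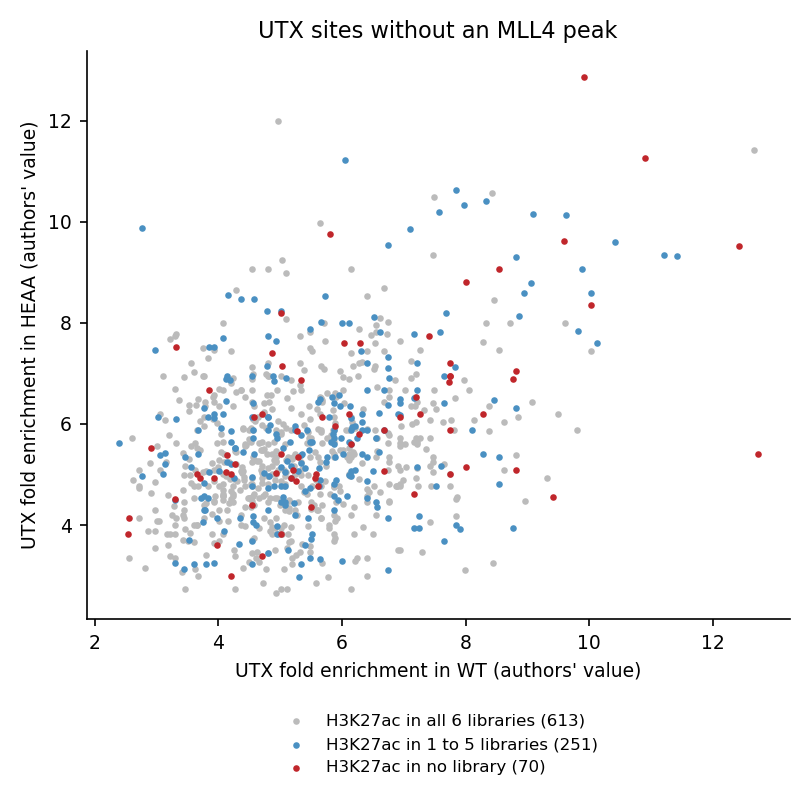
UTX fold enrichment in HEAA cells (y axis) against WT cells (x axis), as given by the authors, for the 934 sites without an MLL4 peak. Colours give the number of the 6 H3K27ac libraries with a region at the site, and the 70 sites with none lie across the whole range, including 5 of the 15 strongest.

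Most sites without MLL4 lay in acetylated chromatin, but less often than sites with it. H3K27ac overlapped 89.4% and 71.1% of the 934 sites in the HEAA libraries 1 and 2, where 93.4% and 76.3% of all UTX sites overlapped it. It overlapped 87.5% and 75.1% in the WT libraries (92.2% and 80.4% of all UTX sites), and 83.3% and 81.6% in the EV libraries (89.2% and 86.3%). The share lay below that of all UTX sites in each of the 6 libraries.

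Sites with MLL4 overlapped H3K27ac at 98.3% and 82.8% in HEAA, 98.0% and 86.9% in WT, and 96.4% and 92.1% in EV cells. Sites without MLL4 were lower in 6 of 6 libraries, with differences between -13.1 and -8.88 percentage points and a mean of -11.1 points (exact two-sided sign-flip permutation test over libraries, p = 0.03125, the smallest p that 6 libraries allow). Both shares of a pair come from the same list, so the test says that the libraries gave the same order. For the 791 sites on chromosomes with MLL4 peaks the difference was -13.4 points, between -15.4 and -10.2 in single libraries (exact p = 0.03125). With the replicate numbers as a block both calls end (exact p = 0.5 each, the smallest p that 2 numbers allow). At the 143 sites on sequences with no MLL4 peak, the mean difference from sites with MLL4 was 1.51 points, above 0 in 3 of 6 libraries (exact p = 0.375).

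**Figure D3:**
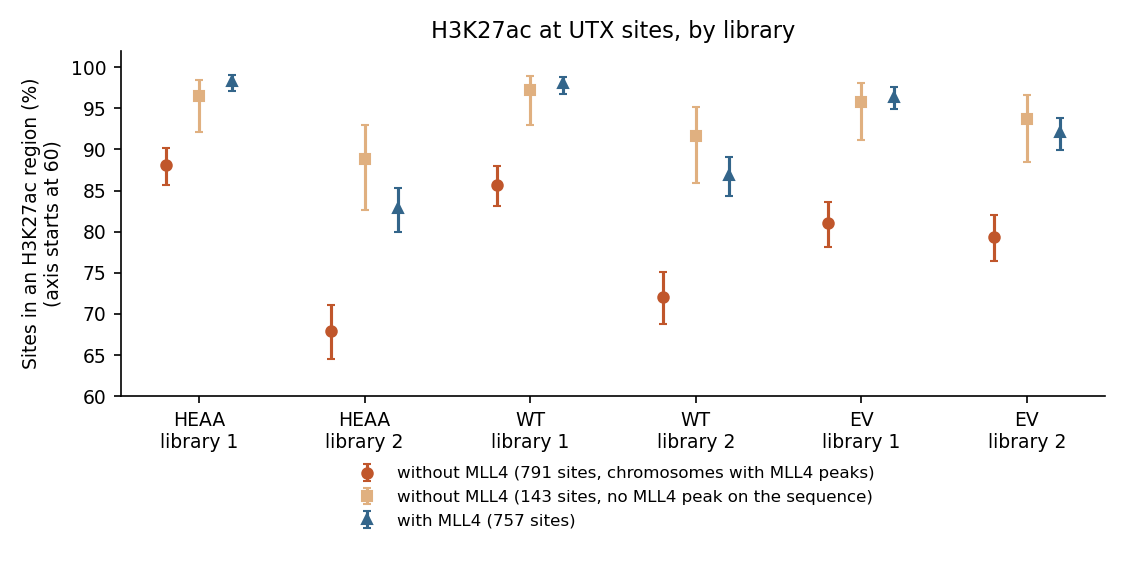
Share of UTX sites overlapping an H3K27ac region (y axis, percent, starting at 60) in each library (x axis), with 95% Wilson intervals as bars. In all 6 libraries the 791 sites without MLL4 on chromosomes with MLL4 peaks lie lowest, between 67.9% and 88.1%, while the 143 sites on sequences with no MLL4 peak lie between 88.8% and 97.2% and the 757 sites with MLL4 between 82.8% and 98.3%.

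No difference in acetylation of these sites between lines was larger than the spread between libraries. The mean share over the 934 sites was 80.2% ± 12.9 in HEAA, 81.3% ± 8.78 in WT and 82.4% ± 1.21 in EV cells (SD, n = 2 each). HEAA and WT together differed from EV by -1.69 points (exact two-sided permutation test over libraries, p = 0.8, smallest possible p 0.0667). HEAA differed from EV by -2.19 points, WT from EV by -1.18 and HEAA from WT by -1.02 (exact p = 1 each, smallest possible p 0.333). The sign depended on the library: HEAA and WT minus EV was 5.14 points within replicate number 1 and -8.51 within number 2. The H3K27ac lists moved with this. They held 72700 and 37298 regions in the HEAA, 63557 and 40470 in the WT, and 59180 and 45880 in the EV libraries 1 and 2. With all lists shortened to the same length, the difference was -1.42 points (exact p = 0.8). The gap between sites without and with MLL4 differed between the UTX lines and EV by 1.05 points (exact p = 0.533, smallest possible p 0.0667).

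At the level of single sites, 613 of 934 (65.6%) overlapped H3K27ac in all 6 libraries, where 71.9% of all UTX sites did. None of the 6 libraries had H3K27ac at 70 sites (7.49%, 95% Wilson interval 5.97 to 9.36), where 4.38% of all UTX sites had none. Intervals here cover counting error only. Among sites with MLL4, 602 of 757 (79.5%) had it in all libraries and 4 (0.528%) in none. Of the 70 sites, 67 were on chromosomes with MLL4 peaks, 8.47% of the 791. With replicate 1 libraries alone, 78 of 934 sites had no H3K27ac, against 7 of 757 with MLL4. With replicate 2 libraries alone, 145 did, against 45 of 757. A site without a region is one below the caller's threshold, so these counts depend on the depth of each library, which the lists do not give.

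Acetylation was lowest at the sites without MLL4 that had the strongest UTX signal. All UTX sites were divided into 5 equal groups by the rank of their fold over the HEAA and WT lists. In the strongest group, H3K27ac covered on average 67.5% of the 115 sites without MLL4 over the 6 libraries, against 94.5% of the 223 with it. In the weakest group, the means were 86.6% of 242 and 92.8% of 97. All 30 differences (5 groups in 6 libraries) were below 0, between -33.1 and -21.2 points in the strongest group and between -16.3 and -2.81 in the others. Restricted to the 791 sites, the strongest group had 92 sites at 62.3% and the weakest 200 sites at 84.0%. No H3K27ac in any library was recorded at 18 of the 115 strongest sites without MLL4 (15.7%), against 1 of 223 with it.

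**Figure D4:**
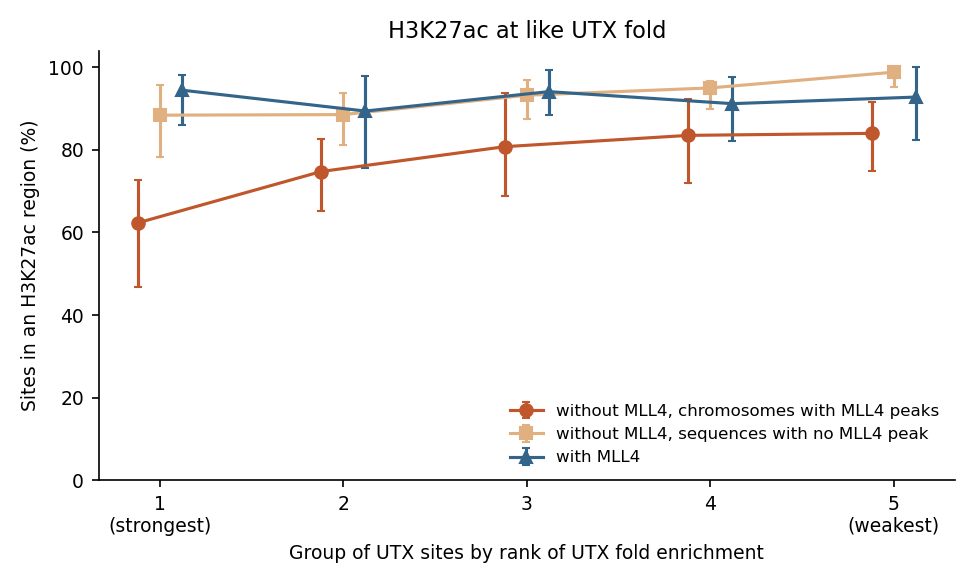
Mean share of sites overlapping H3K27ac over 6 libraries (y axis, percent) in 5 groups of UTX sites ordered by UTX fold (x axis, 1 strongest), with bars from the lowest to the highest library. Sites without MLL4 on chromosomes with MLL4 peaks had means of 62.3% in group 1 and 84.0% in group 5, while sites with MLL4 had 94.5% and 92.8%.

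The strongest single sites are the top of the same rank, so they illustrate this result and add no separate support. Of the 15 sites without MLL4 with the highest UTX rank, 5 had no H3K27ac in any library and 2 had it in all 6. These 2 were on chromosomes 20 and 22, where no MLL4 peak is listed, and 4 of the 15 were on such chromosomes. H3K4me1 was present in all lines at 10 of the 15 (53.7% of all UTX sites) and in no line at 2 (13.5% of all). H3K27me3 lay within 1 kb in some line at 7 (3.43% of all UTX sites). Among the 15 strongest sites without MLL4 on chromosomes with MLL4 peaks, 4 had no H3K27ac and 0 had it in all 6. All 15 of the strongest sites with MLL4 had H3K27ac in all 6. Of the 50 strongest in each class, 13 without MLL4 and 0 with it had none.

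The second strongest site was chr21:45663850-45664174, on a chromosome where no MLL4 peak is listed. It had UTX folds of 11.3 in HEAA and 10.9 in WT cells and no H3K27ac. It had H3K4me1 in all lines, at folds of 4.12 in HEAA, 4.23 in WT and 4.31 in EV cells. It lay 70, 97 and 232 bp from the nearest H3K27me3 region in HEAA, WT and EV cells. The next, chr6:71021803-71022181, had folds of 12.9 in HEAA and 9.91 in WT cells and overlapped neither H3K27ac nor H3K4me1 in any library, and H3K27me3 began 122, 352 and 427 bp away in HEAA, WT and EV cells. It is a site of strong UTX signal with none of the marks over it. The site chr3:181617442-181617929 had folds of 9.51 in HEAA and 12.4 in WT cells and H3K4me1 in every line. It had no H3K27ac, and H3K27me3 lay within 428 bp in every line. At chr7:51113436-51113683, with folds of 9.62 in HEAA and 9.60 in WT cells, H3K27me3 covered the site in EV cells and ended 20 and 86 bp short of it in HEAA and WT cells. A site on chromosome 8 with folds of 8.35 and 10.0 completed the 5 without acetylation.

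The top site, chr20:46110555-46110929, showed the other pattern. It had UTX folds of 11.4 in HEAA and 12.7 in WT cells and H3K27ac in all 6 libraries, at folds of 6.47 and 5.58 in the HEAA, 6.15 and 4.57 in the WT and 6.22 and 3.40 in the EV libraries 1 and 2. H3K4me1 overlapped it in WT and EV cells but not in HEAA cells.

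H3K4me1 lay beside nearly every site without MLL4, as at UTX sites in general. Its regions came within 1 kb of 933, 928 and 929 of 934 sites in HEAA, WT and EV cells, where 99.9%, 99.6% and 99.7% of all UTX sites had one, and overlapped 634 (67.9%), 630 (67.5%) and 715 (76.6%). Among all UTX sites the overlapping shares were 67.5%, 66.9% and 77.6%. At the midpoint of a site, 47.3%, 46.3% and 55.6% lay inside an H3K4me1 region, against 91.7%, 90.8% and 92.3% at 500 bp to either side. At sites with MLL4 the midpoint shares were 36.5%, 37.1% and 49.1%. In each line the share inside a region was thus lower at the middle of the site than on its flanks.

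H3K4me1 overlapped fewer of these sites in both UTX lines than in EV cells. HEAA minus EV was -8.67 points, with 61 sites overlapped in HEAA but not EV and 142 the reverse. WT minus EV was -9.10 points, with 50 in WT but not EV and 135 the reverse. HEAA minus WT was 0.428 points. On the 791 sites the values were -9.23, -9.36 and 0.126 points. Sites with MLL4 had -11.9 for HEAA minus EV and -12.5 for WT minus EV. The 2 contrasts share the EV library, and each line has 1. At the site midpoint the order was the same, with 47.3% in HEAA, 46.3% in WT and 55.6% in EV cells. Within 1 kb of the 934 sites, HEAA minus EV was 0.428 points and WT minus EV -0.107 points. Nearly every site had a region within 1 kb (933 in HEAA, 928 in WT and 929 in EV cells), so that window hardly separates the lines. The H3K4me1 lists covered 186 Mb in HEAA, 179 Mb in WT and 157 Mb in EV cells. The part of these totals in the overlaps was not tested. H3K4me1 was listed in all lines at 505 sites (54.1%, where 53.7% of all UTX sites had it), in none at 131 (14.0%, 13.5% of all), in EV alone at 67 (7.17%, 8.52% of all), and in HEAA and WT alone at 23 (2.46%, 2.78% of all). The strongest EV-only site was chr10:12762400-12762713, with an H3K4me1 fold of 4.30 in EV cells and UTX folds of 10.1 in HEAA and 9.63 in WT cells. The strongest HEAA-and-WT-only site was chr4:56718143-56718410, at H3K4me1 folds of 3.69 in HEAA and 4.16 in WT cells.

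H3K27me3 rarely touched the sites without MLL4. It overlapped 5 sites in HEAA, 2 in WT and 4 in EV cells (0.535%, 0.214% and 0.428%), where 0.296%, 0.118% and 0.237% of all UTX sites did so. All 6 sites concerned had no H3K27ac in any library, and none was on chromosomes 20 to 22. A region covered all of chr6:168900049-168900242 in HEAA and EV cells and ended 275 bp away in WT cells. At chr2:69116696-69116942 it covered the site in HEAA and WT cells and ended 149 bp away in EV cells. The site chr14:100288078-100288382 was the 1 site covered in all 3 lines. The other sites were chr7:51113436-51113683, described above, chr5:1555530-1555875, covered whole in HEAA cells and in part in EV cells, and chr2:10627330-10627568, overlapped in part in HEAA cells. Within 1 kb, H3K27me3 was found at 45 sites in HEAA (4.82%, 2.78% of all UTX sites), 41 in WT (4.39%, 2.66%) and 25 in EV cells (2.68%, 1.54%). Sites with MLL4 numbered 2, 4 and 1 of 757. Over the 791, the counts were 42, 35 and 24. HEAA exceeded EV by 2.14 points and WT exceeded EV by 1.71 points, without replicates. Within 5 kb the differences were 1.39 and 0.214 points, and with regions of −log10 q of at least 2 they were 1.28 and 0.857 points. Sites near H3K27me3 in any line numbered 54 (5.78%, 3.43% of all UTX sites). Of these 54, 19 were so in all lines (2.03%, 1.18% of all). Another 16 were so in HEAA and WT but not in EV (1.71%, 1.01% of all), and 3 in EV alone (0.321%, 0.177% of all). The H3K27me3 lists covered 251 Mb in HEAA, 169 Mb in WT and 239 Mb in EV cells. The part of these totals in the counts was not tested.

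The 70 sites without MLL4 and without H3K27ac mostly carried H3K4me1, as did most UTX sites. It was present in at least 1 line at 66. It was in all lines at 52 (74.3%, 53.7% of all UTX sites) and in none at 4 (5.71%, 13.5% of all). The 4 were chr6:71021803-71022181, chr5:81683204-81683454, chrX:23264200-23264425 and chr1:169903631-169903875. H3K4me1 regions were short, with a median width of 1582 bp in HEAA, 1464 bp in WT and 1732 bp in EV cells, against 3293, 3306 and 3668 bp at the 613 sites acetylated in all libraries. At the midpoint, 67.1%, 74.3% and 71.4% of the 70 lay inside H3K4me1 in HEAA, WT and EV cells, more than the 47.3%, 46.3% and 55.6% of all 934. At 1 kb to either side, the order was reversed, with 34.3%, 26.4% and 37.1% of the 70 against 81.0%, 80.3% and 83.4% of the 934.

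H3K27me3 lay within 1 kb of 30 of the 70 in HEAA (42.9%, 95% Wilson interval 31.9 to 54.5), 27 in WT (38.6%, 28.0 to 50.3) and 18 in EV cells (25.7%, 16.9 to 37.0). It was found there at 2, 3 and 2 of the 613 acetylated sites. In any line, 34 of the 70 (48.6%) were within 1 kb and 50 (71.4%) within 5 kb, where 3.43% and 9.23% of all UTX sites were. HEAA exceeded EV by 17.1 points and WT exceeded EV by 12.9 points, with 13 sites in HEAA but not EV, 1 the reverse, and 12 and 3 for WT. With the 67 sites on chromosomes with MLL4 peaks, the differences were 16.4 and 10.4 points. Over the 145 sites without H3K27ac in replicate 2 they were 10.3 and 6.90 points. H3K27me3 was less frequent at the sites themselves than beside them. In all, 7.14%, 2.86% and 5.71% of midpoints lay inside a region in HEAA, WT and EV cells, against 30.7%, 33.6% and 28.6% at 2 kb to either side. The same order, low over the site and higher beside it, was seen in EV cells and in both UTX lines. H3K27ac came within 10 kb of 47 of the 70 in some library (67.1%, 98.6% of all UTX sites).

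**Figure D5:**
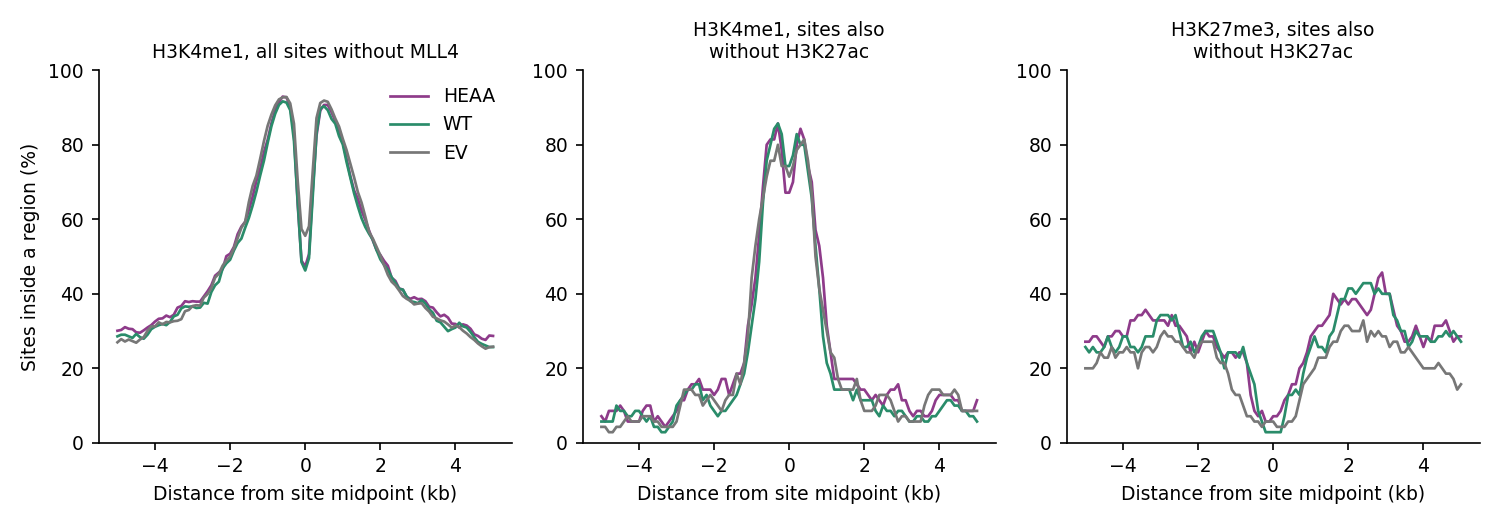
Share of sites inside a region (y axis, percent) by distance from the site midpoint (x axis, kb) in HEAA, WT and EV cells, for H3K4me1 at all 934 sites without MLL4, and for H3K4me1 and H3K27me3 at the 70 that also lack H3K27ac. H3K4me1 dips at the midpoint of the 934 (47.3% in HEAA, 46.3% in WT, 55.6% in EV) and covers a shorter span at the 70 (34.3%, 26.4% and 37.1% at 1 kb), which also dip at the midpoint, while H3K27me3 at the 70 is lower near the midpoint than at 2 kb.

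The MLL4 list of EV cells, which the rule did not use, held 133 peaks, none of them on chromosomes 20 to 22. These peaks were also scarce at the 934 sites. An EV MLL4 peak was listed at 5 of them (0.535%, 95% Wilson interval 0.229 to 1.25, where 3.25% of all UTX sites had one), against 50 of 757 (6.61%) with MLL4 in the UTX lines. The classes were defined by MLL4 in the UTX lines, so this contrast is not independent of the rule. At the 791 sites the share was 0.632%. The strongest by UTX fold was chr4:91095881-91096205, with an EV MLL4 fold of 6.95 and no H3K4me1 in any line, and the next was chr9:112107708-112108183, with an EV MLL4 fold of 7.48, H3K27ac in all 6 libraries and H3K4me1 in all lines. None of the 70 sites without acetylation had one, where 0.535% of the 934 did. With 70 sites this allows a share of up to 5.20%, so it shows no difference from the 934.

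H3K27ac patterns that separated all UTX libraries from all EV libraries were rare. Both HEAA and both WT libraries, but neither EV library, had it at 2 of the 934 sites, where 0.118% of all UTX sites did. These were chr2:121156770-121157071, with H3K27ac folds between 9.66 and 10.6, and chr5:5336201-5336381, between 3.82 and 5.57. The reverse was found at 1 site, chr5:159332583-159332835, with folds of 4.21 and 8.55 in the EV libraries (0.118% of all UTX sites).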

How the data were processed

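Peak lists from 18 ChIP samples were used, and 6 input samples were not. The lists give each region's fold enrichment (a ratio), −log10 p-value, −log10 q-value and summit offset, in the narrowPeak layout as the authors deposited them. MACS2 and hg19 (GRCh37) are named per the submitters' processing notes, while the version of the caller and the aligner were not given in the sources used here. Read depth is not given by the lists, so intervals (95% Wilson) cover counting error only. Overlap means 1 bp. Shares were tested over libraries by exact permutation (NumPy 2.4.6, SciPy 1.17.1, Python 3.11.15, figures with matplotlib 3.10.9), and overlaps were tested on simulated data, where 1174 of 1174 planted overlaps were recovered. Sites were named by fixed ranks of UTX fold: the 15 strongest, the 5 strongest of each mark pattern, H3K27me3-overlapping sites, EV MLL4 sites, and those nearest the MLL4 boundary. Sites named here are a selection from these ranks. The members and the lists of patterns were chosen with earlier results of these data known. Alternatives covered peak thresholds, list length, the MLL4 distance, each library left out and a replicate block. Those on chromosomes with MLL4 peaks and on the sites without acetylation were added after the data were seen.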

Additional observations from a re-analysis of the deposited data

How the results depend on the processing

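The number of sites without MLL4 lay between 686 (UTX −log10 q of at least 5) and 1058 (MLL4 −log10 q of at least 5), against 934. With a replicate block, the difference in H3K27ac between sites without and with MLL4 was -11.1 points, and -13.4 points for sites on chromosomes with MLL4 peaks (exact p = 0.5 each, the smallest p the block allows). The labels do not say that replicate numbers pair libraries; deviations of equal numbers correlated at 0.539 (HEAA and WT), 0.256 (HEAA and EV) and 0.281 (WT and EV). The differences between lines, none of them past the threshold, were not past it under the block either. With single libraries or replicate numbers left out, the same difference lay between -11.6 and -10.7 points, at exact p of 0.0625 or 0.25, the smallest those designs allow. The H3K27ac differences between lines changed sign when libraries were left out: HEAA and WT minus EV lay between -8.51 and 5.14, HEAA minus EV between -11.3 and 6.96, WT minus EV between -7.39 and 5.03, HEAA minus WT between -10.2 and 8.14, and the class difference between UTX lines and EV between -1.31 and 3.42. Leaving out the replicate 2 libraries, or HEAA or WT library 2, turned HEAA and WT minus EV positive; without WT library 1, HEAA minus WT was 5.19; without EV library 1, the class difference was -0.268. With overlap in place of 1 kb, H3K27me3 was 0.107 points for HEAA minus EV and -0.214 for WT minus EV, on 5, 2 and 4 sites in HEAA, WT and EV cells. Sites with no acetylation numbered between 78 and 145 with 1 replicate number left out, since fewer libraries can carry the mark. H3K27me3 near them was then between 10.3 and 17.9 points for HEAA minus EV and between 6.90 and 12.8 for WT minus EV. The other 127 values kept their direction; the 65 of them with a p also kept their side of the threshold. Some of those without a p moved by over 1.5 times. They were H3K27me3 as given in the report, H3K4me1 for HEAA minus WT, between 0.126 and 2.04 points, and H3K27ac without replicate 1. The last was -10.5 points for HEAA minus EV, -6.53 for WT minus EV and -3.96 for HEAA minus WT. Values with a p were not checked for such moves. Depth and the caller's threshold limit every absence.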

Other observations

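Regions holding the sites without MLL4 had larger median widths than their lists as a whole. H3K27ac regions over them had a median width of 3989 bp in HEAA library 1, where the median of all regions was 1013 bp. In WT library 1 the width was 3551 bp (all regions 1072 bp) and in EV library 1 3613 bp (all regions 1009 bp). H3K4me1 regions over them had a median width of 2874 bp in HEAA, 2724 bp in WT and 3102 bp in EV cells, where the medians of all regions were 710, 726 and 741 bp. In library 2, H3K27ac regions over sites without MLL4 had medians of 2521 bp in HEAA, 2812 bp in WT and 3286 bp in EV cells. Sites with MLL4 lay in H3K27ac regions of 4496 and 2553 bp in HEAA, 3992 and 2767 bp in WT, and 3903 and 3389 bp in EV libraries 1 and 2, so the order of the classes differed between WT library 2 and the other libraries. The median fold of the regions over sites without MLL4 stood between the 77.0 and 86.3 percentile of its list over the 6 libraries.

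The median distance between a site without MLL4 and the nearest other UTX site was 177 kb over all 934 and 203 kb over the 791 on chromosomes with MLL4 peaks, against 192 kb for sites with MLL4, so the order depends on the 143 sites elsewhere, at 113 kb.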
